A study of Mus musculus with 12 samples.

Results

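The genes of Nodal signalling described here are the ligands Nodal and Gdf3, the secreted antagonists Lefty1, Lefty2 and Cer1, the co-receptor Tdgf1, the receptors Acvr1b and Acvr2b, and the nuclear partner Foxh1. These 9 genes were taken by symbol from the 18269 genes of the expression table, and all 9 were found. RNA was sequenced from mouse embryoid bodies, aggregates of embryonic stem cells that differentiate in culture, of C57BL/6 strain. The floxed line, 4_1, has the genotype Gcn5fx/fx: both copies of Gcn5 (gene symbol Kat2a), a histone acetyltransferase, are flanked by recombination sites. The null line, 4C2, has the genotype Gcn5-/-. Each line was sampled at day 3 and at day 5 of differentiation, with 3 libraries in each of the 4 groups. Each genotype was represented by 1 cell line, so an effect of the line itself and one of the genotype cannot be told apart. No label says that the samples came from separate cultures, so p-values measure the spread between these samples, which may be technical. The series text speaks of duplicates where the labels give 3 samples a group.

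Nodal is a secreted signal of the TGF-beta family that keeps epiblast cells in a state ready for germ layer formation and later patterns the primitive streak. It binds activin receptors of type I (such as Acvr1b) and type II (such as Acvr2b) together with the membrane-anchored co-receptor Tdgf1, also called Cripto. The receptors phosphorylate Smad2 and Smad3, which enter the nucleus with Smad4 and act with DNA-binding partners such as Foxh1. Nodal, Lefty1 and Lefty2 are themselves known targets of the pathway, so the signal feeds both its own ligand and its own inhibitors.

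Recovered reads ranged from 18022071 to 29446068 per library. Values are normalised reads, meaning read counts divided by 1 size factor per library, and fold changes are log2 differences of value + 1 from limma, given ± SE. Kat2a fell in the null line as its labels state, from 2228 ± 151 to 701 ± 122 normalised reads at day 3 and from 2207 ± 165 to 817 ± 67.5 at day 5 (SD, n = 3). Reads remaining in the null line cannot be placed inside or outside the deleted part, since the table has 1 value per gene. A gene was called at a Benjamini-Hochberg adjusted p under 0.05 over the 17000 genes tested, which included all 9 members.

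Positions are on the mm10 build. Nodal (ENSMUSG00000037171.6) lies on chromosome 10 from 61417972 to 61425338, and Gdf3 (ENSMUSG00000030117.5) on chromosome 6 from 122605403 to 122610087. Lefty1 (ENSMUSG00000038793.8, 180935022 to 180938400) and Lefty2 (ENSMUSG00000066652.5, 180893108 to 180899103) are neighbours on chromosome 1 on the same strand. Cer1 (ENSMUSG00000038192.5) lies on chromosome 4 from 82881751 to 82885148, and Tdgf1 (ENSMUSG00000032494.12) on chromosome 9 from 110939603 to 110946158. Acvr2b (ENSMUSG00000061393.13) is also on chromosome 9, from 119402118 to 119434995. Acvr1b (ENSMUSG00000000532.10, 101174067 to 101213684) and Foxh1 (ENSMUSG00000033837.4, 76668225 to 76669948) are both on chromosome 15. No member shares exons with another annotated gene.

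The 2 Lefty genes are near copies, which bears on how far their reads can be told apart. Their coding sequences, from the GENCODE M21 transcripts, are 1104 bases each and align without gaps, with 1014 identical bases (91.8%) and a longest identical run of 140 bases. The stretch shown, coding bases 35 to 124 counted from the A of the start codon, is the 90-base window with the most differences, and capitals mark its 27 differing bases.
Lefty1: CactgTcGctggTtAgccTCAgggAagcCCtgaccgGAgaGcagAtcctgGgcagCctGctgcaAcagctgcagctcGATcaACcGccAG
Lefty2: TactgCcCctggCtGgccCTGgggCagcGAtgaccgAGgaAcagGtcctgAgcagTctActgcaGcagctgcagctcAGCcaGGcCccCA
Of all 50-base stretches of its transcripts, Lefty1 shared 17.9% with Lefty2, and Lefty2 shared 12% with other genes, chiefly Lefty1. The handling of reads that match both genes is not given in the sources used here, so the division of reads between Lefty1 and Lefty2 is uncertain for those stretches. Tdgf1 shared 8.86% of its stretches with the pseudogene Tdgf1-ps1. Gdf3 shared 1.77% and Cer1 1.78% with other genes, and Nodal, Acvr1b, Acvr2b and Foxh1 shared none.

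At day 3 the floxed embryoid bodies held high levels of most of these genes. Compared per length, as normalised reads per kilobase of exon, Lefty1 was the highest at 10849 ± 1946 (SD, n = 3), rank 100 of 16942 genes. Tdgf1 followed at 3444 ± 958, Gdf3 at 2322 ± 381, Lefty2 at 1606 ± 299, Foxh1 at 1375 ± 120 and Nodal at 1086 ± 86.2. The receptors stood lower, Acvr1b at 196 ± 12.6 and Acvr2b at 180 ± 53.1, and Cer1 was close to 0 at 2.41 ± 1.27. In this order the libraries of Tdgf1 and Gdf3, of Lefty2 and Foxh1, and of Acvr1b and Acvr2b overlapped, while the other neighbours did not. The null line had the same order at day 3, with Lefty1 at 10642 ± 2970 and again at rank 100, and Nodal at 872 ± 178.

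By day 5 the levels had drawn together. In the floxed line Tdgf1 (999 ± 546 normalised reads per kilobase) and Lefty1 (981 ± 586) led, followed by Gdf3 at 660 ± 252, Lefty2 at 449 ± 244, Foxh1 at 418 ± 51.7, Nodal at 269 ± 108, Acvr2b at 248 ± 34.2 and Acvr1b at 190 ± 21.2. Each of these overlapped its neighbour in the order except Foxh1 and Nodal. In the null line Lefty1 (468 ± 352), Gdf3 (402 ± 107), Foxh1 (399 ± 46.9), Tdgf1 (301 ± 192), Lefty2 (250 ± 143) and Acvr2b (209 ± 18.9) formed a run of overlapping neighbours. Acvr1b (168 ± 6.87) was below Acvr2b in every library, and Nodal, at 109 ± 51.2, was below Acvr1b in every library. Nodal stood above 93.7% of genes in floxed embryoid bodies at day 3 and above 73.8% at day 5, and in the null line above 92.0% and then 53.4%.

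**Figure D1:**
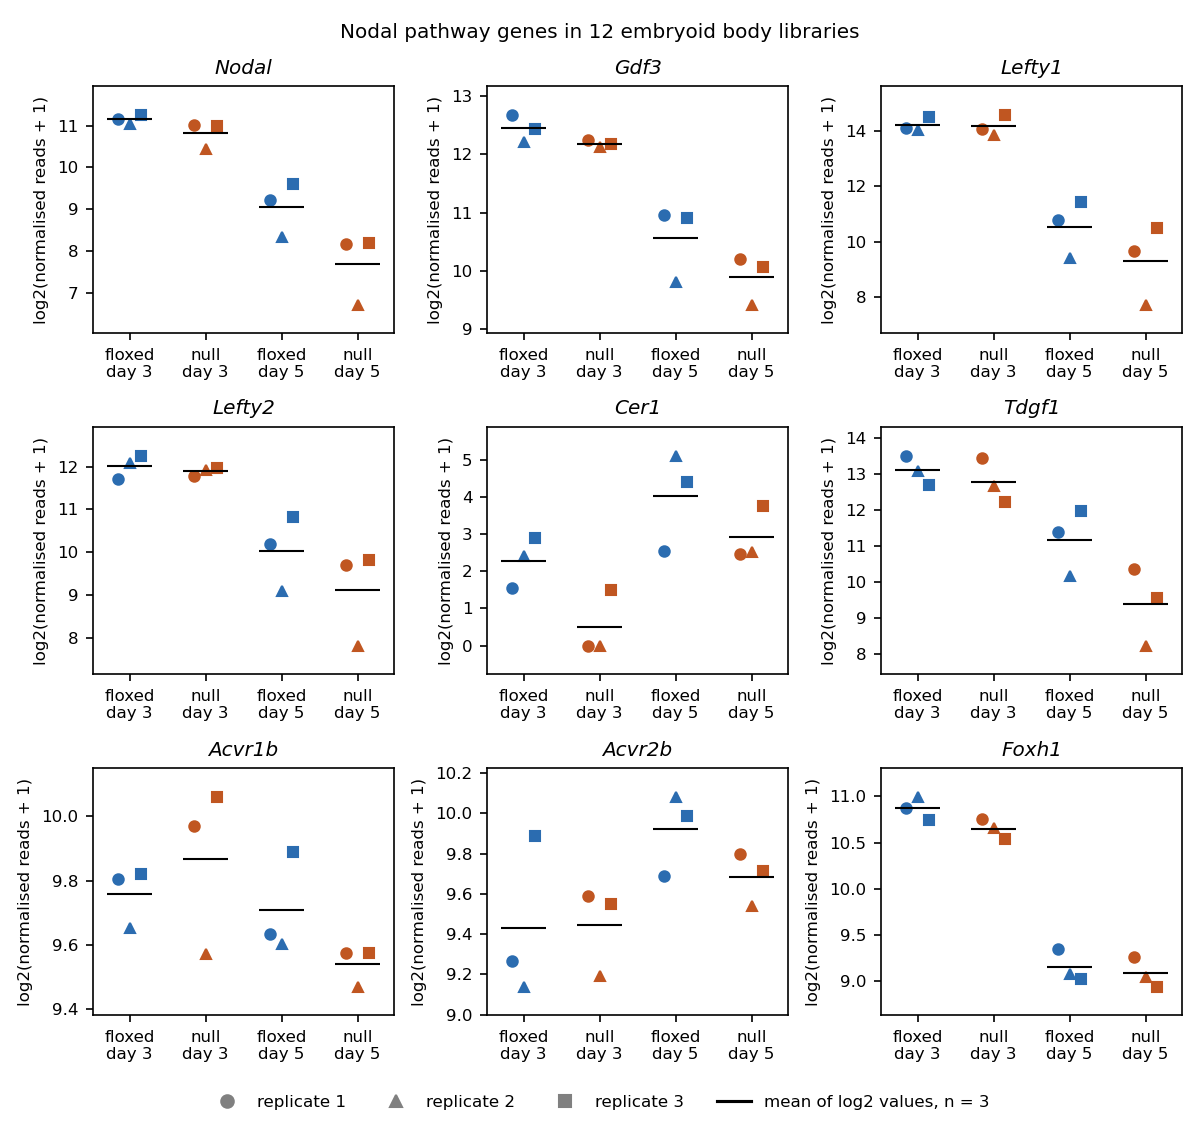
Level of each of the 9 genes in the 12 libraries, as log2(normalised reads + 1) on the vertical axis (its range differs between panels), by line and day on the horizontal axis. Blue points are floxed and orange points null libraries, the marker shape gives the replicate number, and the bar is the mean of the 3 log2 values. Nodal, Gdf3, Lefty1, Lefty2, Tdgf1 and Foxh1 are lower at day 5 than at day 3 in every library of both lines.

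The comparison of day 5 with day 3 shows how the pathway's genes moved as the embryoid bodies differentiated. In the floxed line 7 of the 9 genes were called, against 41.7% of all genes tested. The 6 that fell were Nodal, Gdf3, Lefty1, Lefty2, Tdgf1 and Foxh1 (19.2% of all genes fell), and the 1 that rose was Acvr2b (22.5% rose). In the null line 8 of 9 were called, against 44.5% of all genes: the same 6 fell together with Acvr1b (21.9% of all genes fell), and Cer1 rose (22.6% rose). The 6 genes had no overlap between the days in either line, which 25.9% of all genes in the floxed and 26.3% in the null line showed in the downward direction. The median change of the 9 genes was -1.89 in the floxed and -2.29 in the null line, beside 0.00 for all genes in both. In bulk RNA, fewer cells of a type and less RNA per cell cannot be told apart.

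Among the ligands, Nodal had 2271, 2097 and 2458 normalised reads in floxed replicates 1 to 3 at day 3, and 594, 322 and 773 at day 5. Its log2 change was -2.10 ± 0.36 (adjusted p = 5.55e-04), a 4.04-fold lower mean. The null libraries held 2054, 1396 and 2027 at day 3, and 288, 104 and 291 at day 5. The change there was -3.12 ± 0.36 (adjusted p = 3.26e-05), an 8.03-fold lower mean. The day 5 libraries lay far under those of day 3 in both lines, and in each line replicate 2 was the lowest on both days. Gdf3, a related ligand that can also signal through Tdgf1, started higher, at 6590, 4750 and 5542 in floxed libraries, and reached 1980, 895 and 1925. It fell by 1.89 ± 0.26 on the log2 scale (adjusted p = 1.18e-04). Null libraries went from 4842, 4454 and 4652 to 1173, 683 and 1069, a change of -2.29 ± 0.26 (adjusted p = 3.03e-05). Gdf3 exceeded Nodal per length in every library, by 1.95 to 2.88 times in floxed libraries and by 1.98 to 5.69 times in null libraries, the highest being null day 5 replicate 2.

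The Lefty antagonists block Nodal by binding it and its co-receptor, and Lefty1 had the largest fall of the 9 genes in each line. Lefty1 had 17694, 16554 and 22968 normalised reads in floxed libraries at day 3 and 1751, 682 and 2741 at day 5. This was a log2 change of -3.67 ± 0.58 (adjusted p = 2.89e-04), or 11.1-fold lower. Null libraries went from 16920, 14617 and 24590 to 807, 212 and 1448, a change of -4.86 ± 0.58 (adjusted p = 3.87e-05) and 22.7-fold lower. The highest and lowest day 5 null libraries differed 6.83-fold, the widest spread of any member other than Cer1. Lefty2 had 3357, 4325 and 4900 in floxed libraries at day 3 and 1160, 543 and 1818 at day 5 (-1.98 ± 0.47, adjusted p = 0.00442). Null libraries had 3529, 3849 and 4030, then 831, 224 and 900 (-2.78 ± 0.47, adjusted p = 4.50e-04). Lefty2 fell about as Nodal did, while Lefty1 fell further, as the ratios between them show.

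Per length, Lefty1 stood 5.68 to 7.83 times above Lefty2 in floxed libraries at day 3 and 1.87 to 2.24 times at day 5. In the null line the ratio was 5.64 to 9.06 at day 3 and 1.41 to 2.39 at day 5. The 6 libraries of day 3 thus lay above the 6 of day 5 without overlap, and the lines overlapped on each day. The ratio of Lefty1 to Nodal behaved likewise, at 9.28 to 11.1 in floxed and 9.82 to 14.5 in null libraries at day 3, then 2.53 to 4.23 and 2.44 to 5.94 at day 5. Lefty2 to Nodal ranged from 1.19 to 2.49 over all 12 libraries, and its day 3 and day 5 libraries overlapped in both lines. These ratios rest in part on the uncertain division of reads from the stretches that both Lefty genes share.

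**Figure D2:**
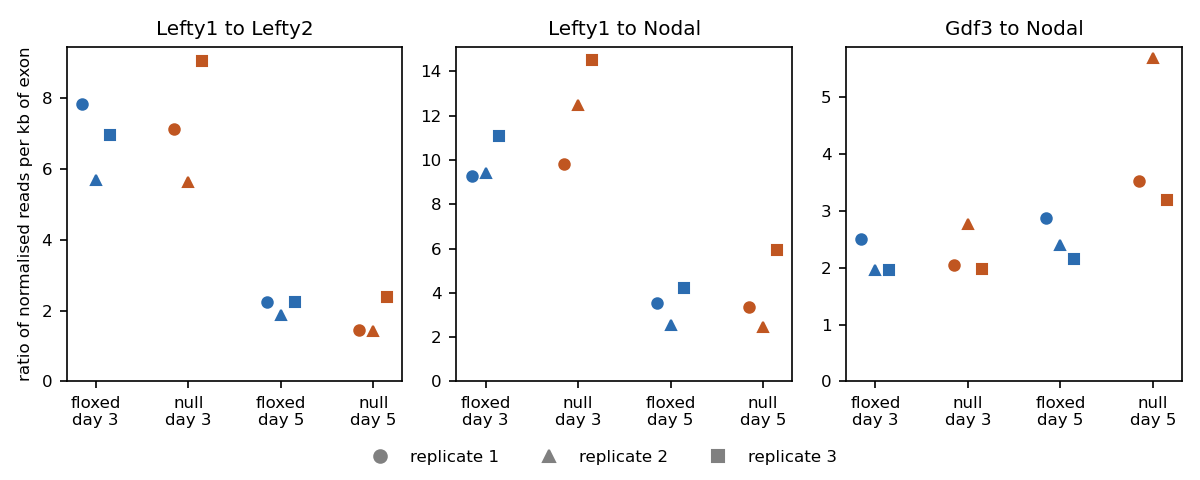
Ratio of normalised reads per kilobase of exon between pairs of genes (vertical axis, from 0) in each library, by line and day. Blue points are floxed, orange points null, and marker shape gives the replicate number. Lefty1 to Lefty2 is 5.64 to 9.06 at day 3 and 1.41 to 2.39 at day 5, Lefty1 to Nodal 9.28 to 14.5 and 2.44 to 5.94, while Gdf3 to Nodal reaches its highest values in null libraries at day 5.

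Cer1 encodes Cerberus-like 1, a secreted antagonist of Nodal and BMP made by anterior visceral endoderm. It was near the floor of detection: the floxed libraries held 2, 4 and 7 reads at day 3 and 6, 40 and 23 at day 5, and the null libraries 0, 0 and 2, then 4, 4 and 14. Its change from day 3 to day 5 was 1.73 ± 0.68 in the floxed line (adjusted p = 0.0563) and 2.41 ± 0.68 in the null line (adjusted p = 0.0114). At such low counts the size depends on the pseudocount: with log2(value + 5) the changes were 1.23 (adjusted p = 0.0353) and 1.08 (adjusted p = 0.057), so the calls of both lines switched. In the floxed line edgeR and DESeq2 on the recovered reads also called the rise (adjusted p = 0.0271 and 0.0364). The null call was lost without null day 5 replicate 3, which held 14 reads (1.99, adjusted p = 0.0518). Over all alternatives the adjusted p ran from 0.00908 to 0.243 in the floxed and from 0.00211 to 0.057 in the null line.

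Most markers of a list for visceral and definitive endoderm also rose with day. Of these 12 markers, 10 rose and 1 fell with day in the floxed line, and 8 rose and none fell in the null line. Of all genes, 22.5% rose in the floxed and 22.6% in the null line. The summed level of the 12 markers in floxed libraries was 1079 to 3756 normalised reads at day 3 and 4966 to 19803 at day 5. In null libraries it was 2383 to 2724 at day 3 and 4958 to 10518 at day 5. Cubn and Apob had the largest part of the sum, with floxed day 5 means of 4644 and 3780. The marker that fell was Hhex, with floxed means of 111 at day 3 and 66.9 at day 5. Between the lines at day 5 only Hhex was called, and it was higher in the null line (0.95 ± 0.20, adjusted p = 0.00546 by limma). Cer1 had -1.11 ± 0.68 there and was not called. No endoderm marker was at 0 in any library. The part of these markers in the Cer1 result was not tested.

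Tdgf1, the co-receptor, had 11682, 8723 and 6687 normalised reads in floxed libraries at day 3, and 2708, 1147 and 4004 at day 5. The change was -1.92 ± 0.51 (adjusted p = 0.00872). Null libraries had 11072, 6489 and 4802 at day 3, and 1309, 302 and 754 at day 5, a change of -3.39 ± 0.51 (adjusted p = 2.01e-04) or 9.46-fold lower. The groups did not overlap between days in either line. The receptors moved little by comparison. Acvr1b, the type I receptor also known as ALK4, had 894, 803 and 904 in floxed libraries at day 3 and 794, 777 and 947 at day 5 (-0.05 ± 0.12, 95% interval -0.31 to 0.21). Null libraries had 1003, 760 and 1068, then 761, 708 and 761 (-0.33 ± 0.12, adjusted p = 0.0427), and the days overlapped. This call had an adjusted p of 0.00416 to 0.162 over the leave-one-out fits and was lost in 7 of those 12, among them the fits without null day 3 replicate 3 (-0.23) and without null day 3 replicate 1 (-0.28). It was also lost with only the 2 null groups in the fit (adjusted p = 0.0632) and without both day 5 libraries numbered 2 (-0.30, adjusted p = 0.132).

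Acvr2b, a type II receptor, had 614, 563 and 947 normalised reads in floxed libraries at day 3 and 824, 1084 and 1014 at day 5. It rose by 0.49 ± 0.18 on the log2 scale (adjusted p = 0.0423), with overlapping libraries. The rise was not called by edgeR (0.45, adjusted p = 0.0622), under upper-quartile scaling (0.46, adjusted p = 0.0537), with only the 2 floxed groups in the fit (0.49, adjusted p = 0.0824), without both day 5 libraries numbered 2 (0.41, adjusted p = 0.152), or in 5 of the 12 leave-one-out fits, where the lowest value was 0.34 without floxed day 3 replicate 2. In the null line it had 769, 584 and 749, then 888, 742 and 838 (0.24 ± 0.18, adjusted p = 0.299). Per length, Acvr2b to Acvr1b was 0.772 to 1.18 in floxed and 0.789 to 0.863 in null libraries at day 3, and 1.17 to 1.57 and 1.18 to 1.31 at day 5. The ratio of the receptors thus turned over between the days in the null line without overlap.

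Foxh1, the DNA-binding partner of the Smads, had the fall with the smallest SE. It had 1871, 2044 and 1717 normalised reads in floxed libraries at day 3 and 652, 540 and 521 at day 5 (-1.72 ± 0.11, adjusted p = 6.95e-07). Null libraries had 1723, 1617 and 1490, then 616, 527 and 492 (-1.57 ± 0.11, adjusted p = 1.84e-06). Its SE of 0.11 compares with 0.36 for Nodal. The highest library of any group exceeded the lowest by 1.25 times at most, against 2.80 times for Nodal in null embryoid bodies at day 5.

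**Figure D3:**
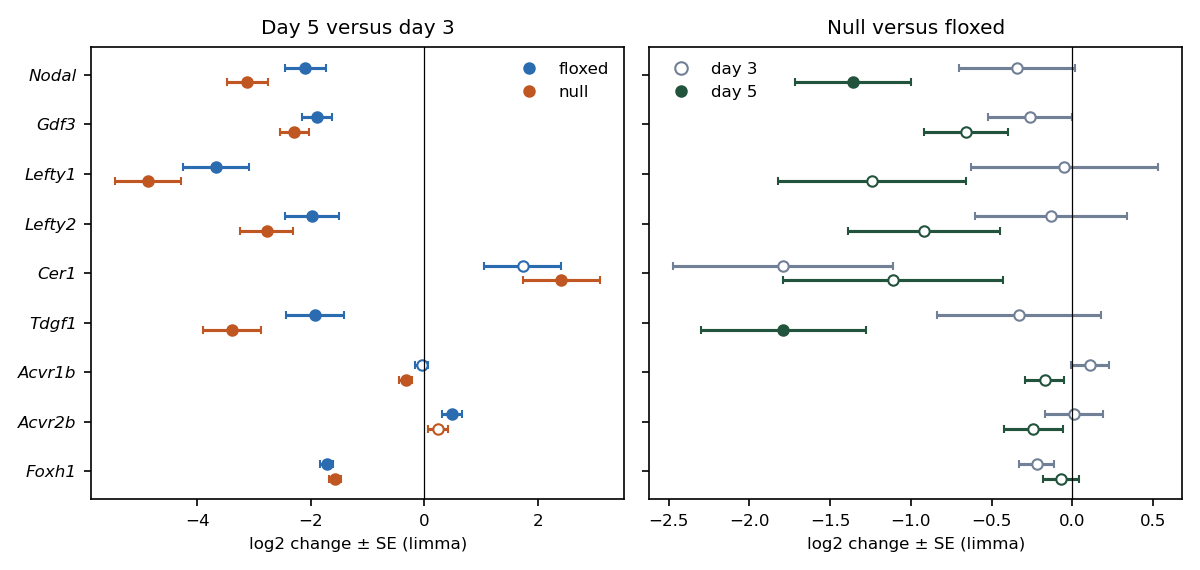
Log2 change of each gene from limma (horizontal axis, error bars ± SE) for day 5 against day 3 in both lines (left) and for null against floxed at both days (right). Filled points passed an adjusted p of 0.05 and open points did not. Lefty1 has the largest fall with day, -3.67 in the floxed and -4.86 in the null line, and at day 5 all 9 genotype values lie below 0 with Nodal and Tdgf1 filled.

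The promoters of the members with a window in the RefSeq table (GRCm38.p6, the same assembly as mm10) differed in base composition. Windows were matched for 5 of the 9 genes: Nodal, Tdgf1, Cer1, Acvr1b and Acvr2b. The 250 bases before the start are shown for Nodal and Tdgf1, which fell with day, and for Acvr1b, which changed little, with CpG dinucleotides in capitals. The Nodal window is chr10:61417722-61417971 on the plus strand, the Tdgf1 window chr9:110946159-110946408 on the minus strand and the Acvr1b window chr15:101173822-101174071 on the plus strand.
Nodal: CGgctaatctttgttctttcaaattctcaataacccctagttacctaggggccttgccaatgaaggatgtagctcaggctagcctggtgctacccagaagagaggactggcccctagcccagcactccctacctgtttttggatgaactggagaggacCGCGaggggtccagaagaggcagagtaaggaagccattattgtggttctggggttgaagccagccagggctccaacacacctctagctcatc
Tdgf1: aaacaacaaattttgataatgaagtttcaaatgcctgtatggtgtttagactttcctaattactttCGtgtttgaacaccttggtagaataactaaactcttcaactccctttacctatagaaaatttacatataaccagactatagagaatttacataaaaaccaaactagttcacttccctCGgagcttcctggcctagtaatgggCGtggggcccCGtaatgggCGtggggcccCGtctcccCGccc
Acvr1b: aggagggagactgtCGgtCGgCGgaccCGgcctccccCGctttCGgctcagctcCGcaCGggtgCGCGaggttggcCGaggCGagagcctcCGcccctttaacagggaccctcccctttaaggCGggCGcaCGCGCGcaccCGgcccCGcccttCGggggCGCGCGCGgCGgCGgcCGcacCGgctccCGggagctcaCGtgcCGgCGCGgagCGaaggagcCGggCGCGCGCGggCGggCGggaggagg
These windows held 3 CpG in Nodal, 7 in Tdgf1 and 42 in Acvr1b, with 53.2%, 42.0% and 78.8% G and C. Cer1 held 5 CpG and Acvr2b 24. Over all 32851 windows the median was 6 CpG (quartiles 2 and 16) and 52.4% G and C. The Foxh1 motifs TGTGGATT and TGTGTATT, searched on both strands, were in 0.718% and 0.895% of all windows, and the palindromic Smad motif GTCTAGAC in 0.167%. None of the 5 members' windows held any of these 3 letter strings. With strings this rare, absence from 5 windows says little. Lefty1 and Lefty2 had no window, and bases outside the 250 were not searched.

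The comparison of the lines at day 3 asks whether these genes differ between the null and floxed lines early in differentiation. None of the 9 genes was called, against 6.12% of all genes tested by limma, and edgeR and DESeq2 also called 0. At an unadjusted p under 0.05 there was 1, Cer1. Nodal was at 80.2% of the floxed mean (-0.34 ± 0.36, 95% interval -1.12 to 0.45) with no overlap of libraries, as for 13.1% of all genes in the downward direction, and Lefty1 at 98.1% (-0.05 ± 0.58, interval -1.30 to 1.21). Gdf3 (-0.26 ± 0.26), Lefty2 (-0.13 ± 0.47), Tdgf1 (-0.33 ± 0.51) and Foxh1 (-0.22 ± 0.11) had values below 0, and Acvr1b (0.11 ± 0.12) and Acvr2b (0.01 ± 0.18, but -0.02 by edgeR and DESeq2) above 0, all with overlapping libraries. Cer1, with 2, 4 and 7 floxed reads and 0, 0 and 2 null reads, had -1.79 ± 0.68 (adjusted p = 0.141). The intervals of Nodal, both Lefty genes and Tdgf1 each reach beyond 1 log2 unit below 0, so this fit does not exclude a change of that size. The same-numbered pairs spread less, from -0.59 to -0.14 for Nodal, -0.18 to 0.10 for Lefty1, -0.28 to 0.07 for Lefty2 and -0.48 to -0.08 for Tdgf1.

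Samples with the same replicate number deviated together in the null and floxed lines on each day, so fits with the number as a block are given beside the genotype results. With 1 block over both days, Cer1 was called at day 3 (adjusted p = 0.0457, 1 of 9 genes called lower against 4.53% of all). With a separate block in each day, an alternative added after seeing the data, Cer1 (adjusted p = 0.0418) and Foxh1 (adjusted p = 0.0451) were called lower, 2 of 9 against 8.08% of all genes. At day 3, 5 of the 9 genes were lower in the null line in all 3 same-numbered pairs (Nodal, Gdf3, Cer1, Tdgf1 and Foxh1), as were 27.3% of all genes tested.

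At day 5 the null line was lower in Nodal and Tdgf1. These were the 2 of 9 genes called in the fit without blocks, against 26.5% of all genes (13.5% lower). Nodal had 594, 322 and 773 normalised reads in floxed and 288, 104 and 291 in null libraries, a change of -1.36 ± 0.36 (adjusted p = 0.0162), with the null mean at 40.4% of the floxed mean. No null library reached the lowest floxed one, as for 22.2% of all genes in the downward direction. Tdgf1 had 2708, 1147 and 4004 in floxed and 1309, 302 and 754 in null libraries, a change of -1.79 ± 0.51 (adjusted p = 0.0212), with the null mean at 30.1%. Null replicate 1 lay above floxed replicate 2, so the libraries overlapped.

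The other members had values below 0 that did not pass the test. Lefty1 had 1751, 682 and 2741 in floxed and 807, 212 and 1448 in null libraries (-1.24 ± 0.58, adjusted p = 0.133). Lefty2 had -0.92 ± 0.47 (adjusted p = 0.166), Gdf3 -0.66 ± 0.26 (adjusted p = 0.081) and Cer1 -1.11 ± 0.68 (adjusted p = 0.254), all with overlapping libraries. Acvr1b (-0.17 ± 0.12), Acvr2b (-0.24 ± 0.18) and Foxh1 (-0.07 ± 0.11) were close to 0, although the Acvr1b libraries did not overlap, as for 22.2% of all genes in the downward direction. The median of the 9 changes was -0.92, beside -0.02 for all genes, of which 52.0% were below 0.

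Compared pair by pair, the day 5 differences had 1 sign in most members. The log2 difference of null minus floxed was -1.04, -1.62 and -1.41 for Nodal in pairs 1 to 3. It was -1.12, -1.68 and -0.92 for Lefty1 and -0.48, -1.28 and -1.01 for Lefty2. Gdf3 had -0.75, -0.39 and -0.85, and Tdgf1 -1.05, -1.92 and -2.41. All but Acvr2b were lower in all 3 pairs, 8 of 9 genes against 32.7% of all genes. With 1 replicate block over both days 4 of 9 genes were called lower, against 17.3% of all genes: Nodal (adjusted p = 6.72e-04), Tdgf1 (0.00384), Gdf3 (0.0086) and Lefty1 (0.015), while Lefty2 had an adjusted p of 0.0657. With a separate block in each day 5 were called lower, against 20.7% of all genes: the same 4 and Lefty2 (adjusted p = 2.87e-04).

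**Figure D4:**
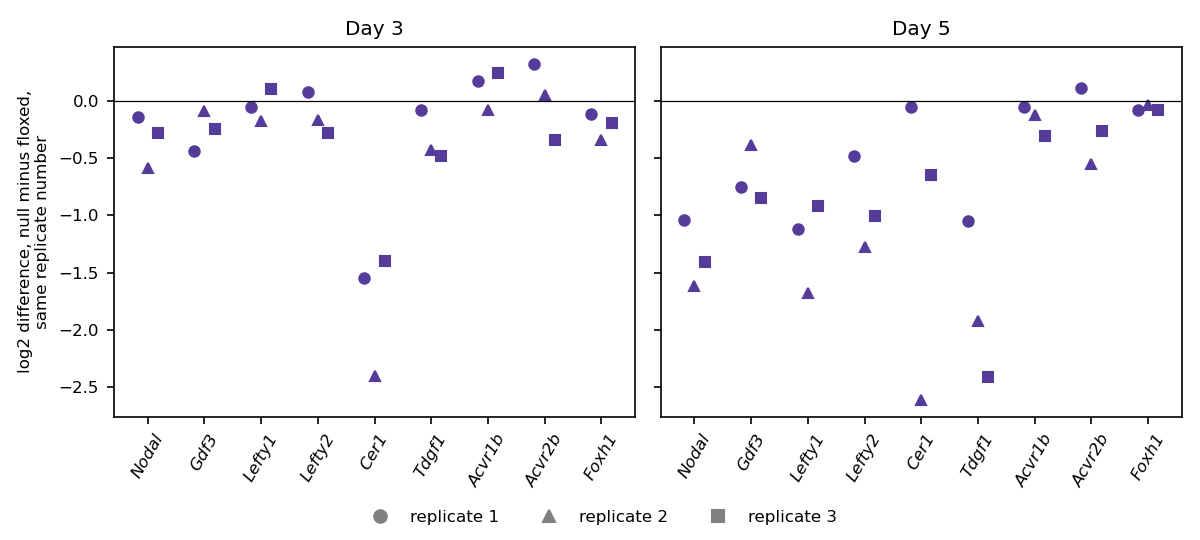
Log2 difference of value + 1, null minus floxed, between libraries of the same replicate number (vertical axis) for each gene at day 3 (left) and day 5 (right). Marker shape gives the replicate number. At day 5 the 3 Nodal points lie between -1.62 and -1.04 and those of Tdgf1 between -2.41 and -1.05, while at day 3 the Nodal points lie between -0.59 and -0.14.

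The day 5 calls depended on single libraries. Leaving out floxed replicate 1 or floxed replicate 3 at day 5 ended both calls (Nodal -1.27 and -1.08, adjusted p = 0.053 and 0.0643; Tdgf1 -1.68 and -1.40, adjusted p = 0.0656 and 0.0829). Leaving out null day 5 replicate 2 ended that of Tdgf1 (-1.22, adjusted p = 0.0867) and moved Nodal to -0.87 (adjusted p = 0.0493). Without floxed day 5 replicate 2 there were 5 calls, all lower, Lefty1, Lefty2 and Gdf3 being added. Of the 17000 genes tested, 24.0% were called there in either direction, 2041 of them lower. The libraries numbered 2 at day 5 were the lowest of their group for 6 of the 9 genes in the floxed and 7 in the null line, as for 33.2% and 27.1% of all genes. Without both of them, an alternative added after seeing the data, 5 of 9 were called lower, against 8.61% of all genes: Nodal (-1.22, adjusted p = 0.00278), Tdgf1 (-1.73, 0.013), Gdf3 (-0.80, 0.00366), Lefty2 (-0.75, 0.0293) and Lefty1 (-1.02, 0.0436). With only the 2 day 5 groups in the fit neither was called (adjusted p = 0.0602 for Nodal and 0.0566 for Tdgf1). Over all alternatives the adjusted p ran from 2.43e-05 to 0.0643 for Nodal and from 7.84e-05 to 0.0867 for Tdgf1.

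Most of the epiblast markers listed also fell with day. Of 10 epiblast and pluripotency markers, 6 fell and 3 rose from day 3 to day 5 in the floxed line and 6 fell and 1 rose in the null line. Of all genes, 19.2% fell in the floxed and 21.9% in the null line. Among those that fell, Dnmt3b, the most abundant of the list and a DNA methyltransferase of the epiblast, changed by -1.28 ± 0.16 and -1.63 ± 0.16. Pou5f1, which encodes Oct4, changed by -1.67 ± 0.26 and -2.39 ± 0.26. The 3 that rose in the floxed line were Sox2 (0.56 ± 0.07), Klf4 (1.54 ± 0.21) and Esrrb (0.87 ± 0.32), and Klf4 also rose in the null line (1.10 ± 0.21). The summed level of the list was 39079 to 52883 normalised reads in floxed and 35251 to 45647 in null libraries at day 3, then 17587 to 24284 and 12798 to 16904 at day 5. Dnmt3b and Pou5f1 made up most of this sum, with floxed day 3 means of 23835 and 11893. In the sum the null libraries were below all floxed ones at day 5. Of the 10 markers, 5 were called lower in the null line at day 5, against 13.5% of all genes. Among them were Sox2 (-0.76 ± 0.07), Esrrb (-1.48 ± 0.32), Pou5f1 (-1.04 ± 0.26) and Fgf5 (-1.03 ± 0.30). In both lines the library numbered 2 had the lowest sum at day 5. No marker of the list was at 0 in any library, and the part of these markers in the results for Nodal, Tdgf1 and the other members was not tested.

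Of the remaining marker lists, those for neural ectoderm and feeder fibroblasts also changed with day. Of 8 neural ectoderm markers 7 rose in the floxed and 4 in the null line, against 22.5% and 22.6% of all genes. Zic1 (-3.30 ± 0.50) and Six3 (-2.50 ± 0.66) were lower in the null line at day 5. Of 10 primitive streak and early mesoderm markers in the table, 3 rose and 0 fell with day in the floxed line. In the null line 2 rose and 2 fell. Of all genes, 41.7% and 44.5% were called in either direction. Between the lines at day 5, 4 of the 10 were called lower in the null line, against 13.5% of all genes. These were T (-2.18 ± 0.59), Wnt3 (-1.17 ± 0.32), Fgf17 (-1.38 ± 0.29) and Cdx1 (-1.86 ± 0.58). The T libraries overlapped, with floxed values of 155 ± 156 (SD). Hand1 (1.41 ± 0.53), Mesp2 (0.73 ± 0.50), Tbx6 (0.64 ± 0.43) and Kdr (0.14 ± 0.46) had values above 0 and were not called. The summed level of this list at day 5 was 346 to 428 in null and 535 to 714 in floxed libraries. Of the 6 feeder fibroblast markers tested, 4 rose with day in each line, 1 fell (Thy1, -1.80 ± 0.48 floxed and -1.78 ± 0.48 null), and none was called between the lines.

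The change from day 3 to day 5 was compared between the lines as an interaction. None of the 9 genes was called, against 0.476% of all genes by limma; edgeR and DESeq2 called 0 as well, and 0 had an unadjusted p under 0.05. The value was below 0 for 7 of 9 genes, with a median of -0.40 beside -0.015 for all genes, of which 52.2% were below 0. Tdgf1 had -1.47 ± 0.72 (adjusted p = 0.385), Lefty1 -1.19 ± 0.82 (0.559), Nodal -1.02 ± 0.52 (0.395) and Lefty2 -0.80 ± 0.67 (0.637). With 1 replicate block over both days 0 were called, against 2.61% of all genes. With a separate block in each day Lefty1 (adjusted p = 0.00381), Nodal (0.00627), Tdgf1 (0.0112) and Lefty2 (0.0247) were called lower, 4 of 9 against 3.94% of all genes.

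Within groups, the members fell into those that varied together and those that did not. Correlations of log2 deviations from the group mean over the 12 libraries, which share depth and pairing, are given as a description. Nodal and Lefty1 had r = 0.952, Lefty1 and Lefty2 0.951, Nodal and Lefty2 0.935, Nodal and Gdf3 0.857, and Nodal and Tdgf1 0.816. Nodal and Foxh1 had 0.072 and Nodal and Cer1 0.022. Over the 12 libraries as a set, more Nodal thus went with more of both Lefty genes, Gdf3 and Tdgf1, while Foxh1 hardly followed. The largest Nodal deviations were those of the day 5 libraries numbered 2, -0.71 floxed and -0.98 null. At day 3 the order did not hold in every library. Floxed replicate 3 had the most Nodal (2458) but the least Tdgf1 (6687). Null replicate 1 had the most Nodal (2054) but the least Lefty2 (3529).

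Other genes with a like pattern were sought among 11494 genes whose mean reached 100 in a group or more, by Pearson correlation of log2 values over the 12 libraries. These r values include the change with day and are the highest of all genes searched. On this measure Nodal and Foxh1 had 0.895, against 0.072 within groups. Nod1, which encodes an intracellular sensor of bacterial peptidoglycan, was most alike to Nodal (r = 0.994) and to Lefty2 (0.987), and was also the first for Gdf3 (0.986) and the second for Lefty1 (0.988). Dppa5a (0.991) and Alpl (0.988), both known from pluripotent cells, came next for Nodal. Lefty1 was most alike to Rbmxl2 (0.989), Tdgf1 to Platr10 (0.984), Mkrn1 (0.980) and Fgf4 (0.979), and Foxh1 to Syt9 (0.995), Plcg2 (0.991) and Foxr2 (0.990). The receptors had weaker partners, Aatk for Acvr1b (0.912) and Cecr2 for Acvr2b (0.965), as had Cer1, with Idh2 (0.941). Pcsk6, a convertase that cleaves the Nodal precursor, was the second for Lefty2 (0.972).

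The wider pathway was described with a list of 45 other genes, 43 of them in the table and 40 tested. From day 3 to day 5, 17 rose and 14 fell in the floxed line, where 22.5% of all genes rose and 19.2% fell. In the null line 15 rose and 14 fell, where 22.6% of all genes rose and 21.9% fell. The other receptors all rose in both lines: Tgfbr1 (1.32 ± 0.10 floxed, 1.18 ± 0.10 null), Tgfbr2 (1.03 ± 0.16 and 1.29 ± 0.16), Acvr2a (0.81 ± 0.10 and 0.67 ± 0.10) and Tgfbr3 (0.78 ± 0.20 and 0.51 ± 0.20), 4 of 4 tested. Ligands of the TGF-beta branch rose as well, with Tgfb2 at 2.12 ± 0.39 and 2.46 ± 0.39 and Tgfb3 at 2.05 ± 0.40 and 2.52 ± 0.40. Of the convertases that cleave ligand precursors, Pcsk5 rose (1.95 ± 0.31 and 0.93 ± 0.31) and Pcsk6 fell (-0.56 ± 0.16 and -0.82 ± 0.16).

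Among the 14 intracellular genes, 4 rose and 5 fell in the floxed line and 3 rose and 6 fell in the null line. The transducer Smad3 rose by 1.12 ± 0.15 and 0.97 ± 0.15, while Skil (-1.19 ± 0.16 and -1.86 ± 0.16) and Ski (-0.90 ± 0.12 and -1.02 ± 0.12), which repress Smad-dependent transcription, and Dact2 (-1.25 ± 0.11 and -1.14 ± 0.11), which promotes the degradation of Nodal receptors, fell. Of 4 other extracellular antagonists, Fst, which encodes the activin-binding follistatin, rose by 2.66 ± 0.24 and 3.28 ± 0.24 and Fstl3 fell by 0.86 ± 0.22 and 1.19 ± 0.22. Tmeff1 (-0.25 ± 0.08) and Dand5 (-0.69 ± 0.24) also fell in the floxed line, and were not called in the null line (-0.06 ± 0.08 and -0.25 ± 0.24). Thus Fst was the only 1 of the 4 called in the direction opposite to the Lefty genes. Among 10 listed targets, 3 rose and 4 fell in the floxed line and 2 rose and 6 fell in the null line. Smad7 (-1.03 ± 0.22 and -1.24 ± 0.22), which encodes an inhibitor of the receptors, fell in both lines, and Foxa2 (2.59 ± 0.29 and 1.61 ± 0.29) rose in both.

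Between the lines, 2 of the 40 were higher and 4 lower in the null line at day 3, where 6.12% of all genes were called. The higher were Smurf2 (0.53 ± 0.09, adjusted p = 0.00404 by limma) and Skil (0.58 ± 0.16, adjusted p = 0.0482). Among the lower were Fst (-1.14 ± 0.24, adjusted p = 0.0156) and Otx2 (-1.06 ± 0.29, adjusted p = 0.0454). At day 5, 2 were higher and 7 lower, a share near that of all genes (26.5% called, 13.5% lower). The targets Fgf8 (-1.62 ± 0.38, adjusted p = 0.00798), Foxa2 (-1.38 ± 0.29, adjusted p = 0.00476) and Otx2 (-1.08 ± 0.29, adjusted p = 0.015) were lower beside Nodal and Tdgf1, as were Pcsk5 (-1.06 ± 0.31) and Tgif2 (-0.58 ± 0.09). Smad2 (0.53 ± 0.09, adjusted p = 0.00167 by limma) and Smurf2 (0.25 ± 0.09, adjusted p = 0.0441) were higher. The median over the 10 targets was -0.92, over the 14 intracellular genes -0.11 and over the 4 other receptors -0.04, beside -0.02 for all genes. No gene of the list was called for the interaction.

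**Figure D5:**
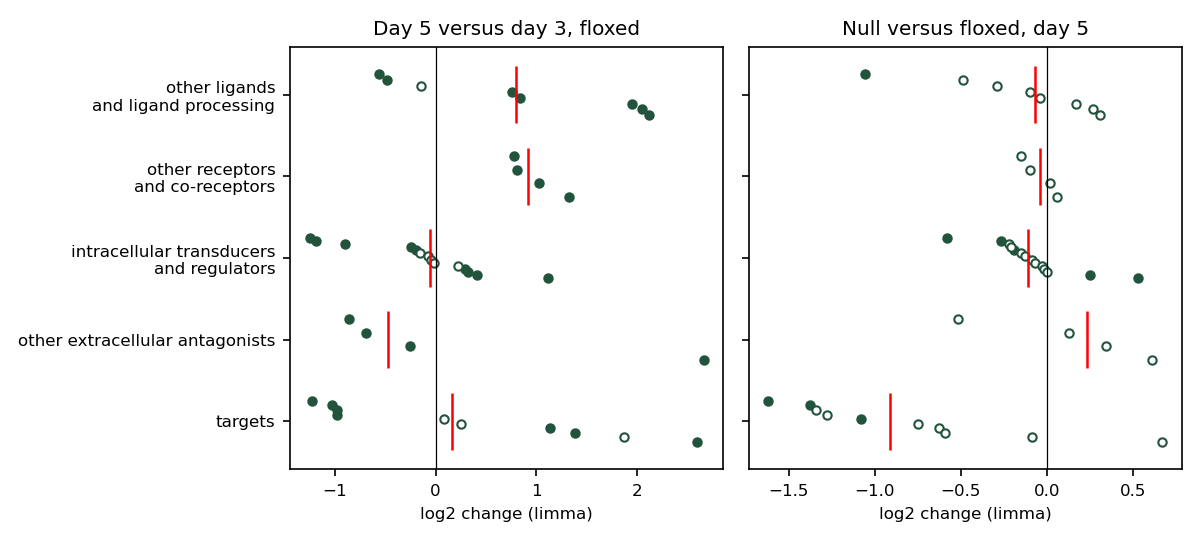
Log2 change from limma (horizontal axis) of each tested gene in 5 lists of other Nodal, activin and TGF-beta pathway genes, for day 5 against day 3 in the floxed line (left) and null against floxed at day 5 (right). Filled points passed an adjusted p of 0.05, open points did not, and red bars are list medians. All 4 other receptors are filled and above 0 on the left, and on the right the targets have the lowest median, -0.92.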

How the data were processed

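RNA of mouse embryoid bodies was sequenced from 12 samples: 2 lines, 2 days and 3 samples in each group. Per the labels' protocols, libraries were stranded total RNA libraries (TruSeq) made with 8 PCR cycles. The authors deposited 1 signal value per gene and sample, which is a read count divided by 1 size factor per sample. Per the submitters' processing notes, the tools were TopHat2 (2.0.10), HTSeq (0.6.0), CASAVA (1.8.2) and DESeq (1.16.0), in roles that are not given, with the build mm10, and whether counting used the strand is not given in the sources used here. Whole reads were recovered from the deposited values by dividing each column by its smallest nonzero value (100% of values whole, tolerance 0.01), 18022071 to 29446068 per library. Intervals cover the spread of these samples only.

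Symbols, positions and exon lengths came from GENCODE M21 by gene ID without version (18199 of 18269 IDs matched). limma-trend (limma 3.58.1, R 4.3.3) was fitted to log2(value + 1) as 4 group means, using all 12 samples and the 17000 genes whose mean reached 10 in a group or more, with 1269 genes left out, 8 residual and 5 prior degrees of freedom, two-sided tests and Benjamini-Hochberg adjustment. The script was tested on simulated data. edgeR 4.0.16 and DESeq2 1.42.0 on the recovered reads, other pseudocounts and filters, other scalings, a replicate block and leaving out each library were alternatives.

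Same-numbered null and floxed samples deviated together from their group means across genes (r = 0.27 to 0.372 at day 3 and 0.247 to 0.424 at day 5, against at most 0.0268 for other pairs), so the numbers were taken as pairing the lines within a day. Between days of the floxed line they reached only 0.0814 to 0.214, against at most 0.124 for other pairs, so the days were not taken as paired there. In the null line they reached 0.123 to 0.282, against at most 0.0521 for other pairs, and the block changed no member's call there. Paired null days, with lines paired within each day, would also pair the floxed days. The numbers therefore do not settle the pairing between days, and the labels state none. The reported fit has no block, so its genotype results leave the pairing within days out.

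Named genes were the 9 members, Kat2a, the called genes of each list with the smallest p (at most 4 a list and contrast), the most abundant marker, and the 3 genes most alike to each member. Some of these are given only by their counts, and the ratios between members were chosen after values were seen. The members and lists were chosen with earlier results of these data known. Gdf1, Acvr1c, Mesp1, Lum and Fap were not analysed here. The rule for named genes takes a further gene that is not reported here.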

Additional observations from a re-analysis of the deposited data

How the results depend on the processing

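With a Benjamini-Hochberg adjusted p from limma, edgeR or DESeq2, the 981 alternative values of single members that kept their direction and their side of the threshold compare with 27 that lost a call, 25 that gained one and 15 that changed sign. The counts of members called with day kept within 1.5 times of the reported counts, at 6 to 8 of 9 over the leave-one-out fits in each line. At day 3 between the lines, 1 member was called with the replicate block and 2 with a block in each day, against 0 in the fit without blocks. At day 5 between the lines, 4 members were called with the replicate block, 5 with a block in each day, 5 without both day 5 libraries numbered 2, 0 with only the groups compared and 0 to 5 over the leave-one-out fits, against 2. For the interaction, 4 members were called with a block in each day, against 0. Block fits changed no other member's genotype call; with 1 block over both days the rise of Cer1 in the floxed line was called (adjusted p = 0.0153). Among all genes, 1041 were called at day 3 between the lines, against 1696 by DESeq2, 1866 with the replicate block, 647 with only the groups compared, 2961 with a block in each day and 426 to 1133 over the leave-one-out fits. For the interaction 81 were called, against 511 by DESeq2, 443 with the replicate block, 1188 with a block in each day, 7 without both day 5 libraries numbered 2 and 3 to 115 over the leave-one-out fits. Without both of those libraries 2935 genes were called at day 5 between the lines, against 4509. The values that changed sign were all of genes near 0 or, for Cer1, near the floor of detection. Acvr2b at day 3 between the lines was -0.02 by edgeR and by DESeq2 and -0.13 to 0.24 over the leave-one-out fits. In those fits Lefty1 at day 3 ran from -0.26 to 0.11, Foxh1 at day 5 from -0.16 to 0.03, Acvr1b with day in the floxed line from -0.14 to 0.00, and the Cer1 interaction from -0.06 to 1.23. The Acvr1b value was 0.00 without both libraries numbered 2. The Cer1 interaction was -0.15 with log2(value + 5). The cause of these changes was not tested. A block in each day gives no value for the change between days, the fit of only the groups compared gives none for the interaction, and Cer1 was not tested at a minimum mean of 100. Cer1, with at most 40 reads in a library, is the member most limited by depth.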
